A study of Mus musculus with 6 samples.

Results

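The genes described here are 5 signal transducers of the STAT family (Stat3, Stat4, Stat5a, Stat5b and Stat6) and 5 genes that STAT proteins switch on (Socs1, Socs2, Socs3, Cish and Pim1). They are 10 of the 21887 protein-coding genes in the gene table used. They were taken by name, and each was described by the ATAC-seq peaks within 1 kb of either end of the gene, called gene-end peaks, and by all peaks that touch the gene or its flanks of 50 kb. ATAC-seq maps open chromatin with the Tn5 transposase, which inserts adapters where DNA is accessible. The cells were immature B cells (B220+CD93+) sorted from the spleen of Tcrd-GDL mice, a strain whose γδ T cells carry the receptor for diphtheria toxin. There were 3 libraries from untreated Tcrd-GDL mice and 3 from Tcrd-GDL mice given the toxin (DTx) at 15 ng per g body weight in 2 injections 48 h apart and studied on day 8, counted from the first injection. Both groups carry the same allele, no group received toxin without carrying the receptor, and the labels give no age. Removal of γδ T cells and any other effect of the toxin therefore cannot be told apart. Separate mice are not stated in the labels, so a p-value here measures the spread of these samples only, and that spread may be technical.

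STAT proteins wait in the cytoplasm until a cytokine receptor activates its JAK kinases, are phosphorylated on a tyrosine, pair up and bind DNA in the nucleus. STAT6 carries the signal of IL-4 and IL-13, STAT5A and STAT5B that of IL-7 and IL-2, STAT3 that of IL-6, IL-10 and IL-21, and STAT4 that of IL-12. SOCS1, SOCS2, SOCS3 and CISH are induced by these signals and dampen the receptors that raised them, while PIM1 is a STAT-induced serine/threonine kinase that favours survival. In B cells IL-4 and IL-21 from T cells act through STAT6 and STAT3, and STAT5 serves the IL-7 signal of B cell precursors.

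The promoter sequences of the genes were searched for the letters of a STAT site, TTCNNNGAA (3 bases of any kind between TTC and GAA), and for the longer spacing preferred by STAT6, with 4 bases between TTC and GAA. Both patterns read the same on the opposite strand, so a match holds for both strands. The windows ran from 250 bases before to 50 bases after each RefSeq start site (GRCm38.p6, the assembly of mm10), with 13 windows for 9 of the 10 genes and none for Socs2. TTCNNNGAA was found in 8.30% of all 32851 windows of that table and in 2 of the 13 windows here, those of Cish and Socs3. The 4-base spacing was found in 6.95% of all windows and in 0 of the 13, so no match of one pattern overlapped a match of the other. A match is a description of the letters and no evidence of binding. Cish stood out by holding 2 such sites, which 150 of the 32851 windows (0.457%) did. They are shown because Cish is the classic STAT5 target. The stretch is chr9:107296559-107296678 on the plus strand, the capitals mark the 2 matches, and the first match begins at the start site itself.
Cish: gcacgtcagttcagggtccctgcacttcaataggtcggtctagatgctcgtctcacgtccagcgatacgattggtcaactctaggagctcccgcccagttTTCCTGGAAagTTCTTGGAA
The single match of Socs3 lies upstream of its start site on the minus strand, in chr11:117969497-117969526, with the match in capitals.
Socs3: ccagccTTCTTAGAAgggaggggggggaaa
Both Cish matches were under a peak in 6 of 6 libraries, in the region chr9:107296089-107297033. The Socs3 match was under a peak in 5 of 6 libraries, in the region chr11:117968945-117970489. In DTx replicate 1 it fell between 2 peaks of that region.

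The deposited lists held 36760, 42504 and 56503 peaks in untreated replicates 1, 2 and 3, and 44661, 56266 and 60811 in DTx replicates 1, 2 and 3. Values per library are given in that order throughout. Untreated replicate 3 and DTx replicate 1 have the layout of a narrow-mode list with a summit, and the other 4 that of a broad-mode list. Read totals were not used here and the depth is unknown. Peak strength was expressed as the percentile of the −log10 q of a peak within its own list, which also moves with how many weak peaks that list holds. For comparisons between groups, every list was shortened to its 36760 peaks with the highest −log10 q, called the equal-length lists. This left out 0% of the list of untreated replicate 1 and 39.6% of that of DTx replicate 3. Of 8 B lineage markers, 7 were called at a gene end in every library, Cd79a among them. Markers of other lineages were fewer: 3 of 8 for T cells, with Cd3e, Zap70 and Cd8a called in no library, and 1 of 9 for natural killer and innate lymphoid cells.

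A gene-end peak was called in every library for 8 of the 10 genes and in no library for Stat4 and Stat5b. Over all protein-coding genes, 49.2% had one in 6 of 6 libraries and 40.9% in none. The same 8 genes were called in every equal-length list, against 46.5% of all genes. Of the 10 genes, 0 were called in all DTx and no untreated libraries, against 0.0366% of all genes, and 0 in all untreated and no DTx libraries, against 0.00457%. With 9 genes that have a RefSeq start-site window, a peak lay over at least 1 window in 6 of 6 libraries for all 9, against 48.4% of all genes with a window. Stat4 and Stat5b thus had a peak over a start-site window inside the gene, and a start-site peak was called in 6 of 6 libraries for 6.15% of the genes with a window and no gene-end peak.

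**Figure D1:**
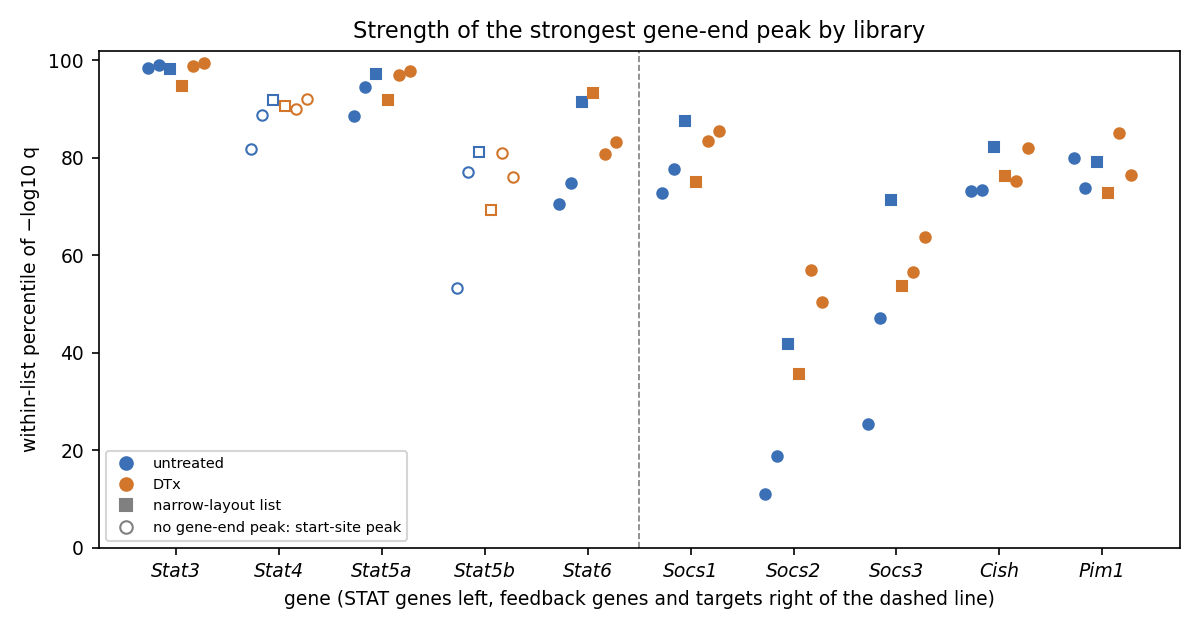
Within-list percentile of −log10 q (vertical axis) of the strongest gene-end peak of each gene (horizontal axis), 1 symbol per library, untreated in blue and DTx in orange, squares for narrow-layout lists. Open symbols give the strongest start-site peak where a gene has no gene-end peak. Stat3 lies between 94.7 and 99.5 in all 6 libraries, Socs2 between 11.1 and 57.0.

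Among the transducers, Stat3 had the strongest gene-end peak. Stat3 (chr11:100886806-100939594) encodes the transducer of IL-6, IL-10 and IL-21 signals. Its peak region, chr11:100939057-100940218, covers the start site and reached percentiles of 98.4, 99.1 and 98.3 in the untreated libraries and 94.7, 98.8 and 99.5 in the DTx libraries. The groups overlapped, and DTx replicate 1 was the lowest. The 150 bases before that start site, chr11:100939541-100939690 on the minus strand, are shown as the sequence of the most open start site of the set. They hold 7 CpG dinucleotides and 61.3% G and C.
Stat3: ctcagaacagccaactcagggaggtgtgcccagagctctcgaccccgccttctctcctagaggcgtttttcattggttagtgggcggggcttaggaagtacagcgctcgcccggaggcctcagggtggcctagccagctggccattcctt
Inside Stat3, the region chr11:100893468-100894080, 6.66 kb from the nearer gene end, was called in 6 of 6 libraries at percentiles from 62.5 to 84.8.

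Stat5a (chr11:100859351-100885169) and Stat5b (chr11:100780731-100859004) encode the paired STAT5 proteins and lie head to head beside Stat3, so the 3 genes share part of their peaks. Their windows held 24 distinct regions, of which 14 were called in 6 of 6 libraries, and 5 regions counted for all 3 genes. The gene-end peak of Stat5a reached percentiles of 88.5, 94.5 and 97.2 in the untreated and 91.8, 97.0 and 97.8 in the DTx libraries, with overlap of the groups. It covered the inner of the 2 RefSeq start sites of Stat5a, at 100860484, in all 6 libraries, and the outer one, at 100859656, was under a peak in none. Its nearer edge lay 0.658 kb inside the gene, so that within 500 bp of a gene end Stat5a had a peak in 0 of 6 libraries. The region of this peak lay 1.005 kb from the nearer end of Stat5b, just past the limit of 1 kb. Within 2 kb of a gene end Stat5b had a peak in 6 of 6 libraries, and Stat4 still in 0 of 6.

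Stat5b showed 2 start-site peaks, both inside the gene as the gene table bounds it. At the start site 100850581 the percentiles were 47.1, 50.7 and 71.4 in the untreated and 35.6, 66.4 and 66.6 in the DTx libraries. At the start site 100822570 they were 53.3, 77.0 and 81.3 in the untreated and 69.3, 80.9 and 76.2 in the DTx libraries. The groups overlapped at both sites, and both were under a peak in 6 of 6 libraries. The window of the first site held 50 CpG dinucleotides in 300 bp and that of the second 7, so the more CpG-rich start site was not the one with the stronger peak. The strongest other region in the Stat5b window lay at a start site of the neighbouring gene Rab5c, at percentiles from 94.8 to 97.6.

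**Figure D2:**
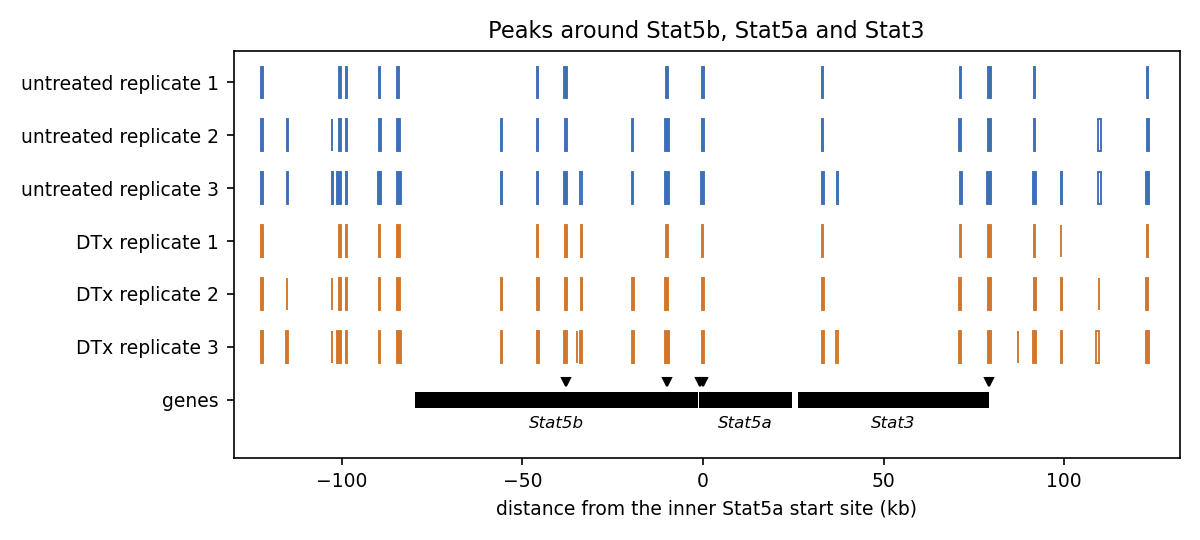
Peaks of the 6 deposited lists (rows; untreated in blue, DTx in orange) around Stat5b, Stat5a and Stat3, by distance in kb from the inner Stat5a start site. Filled boxes are peaks of the equal-length lists and open boxes are the remaining peaks, black bars are the genes, and triangles are RefSeq start sites. The same columns recur from library to library, and untreated replicate 1 and DTx replicate 1 lack several of them.

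Stat4, on chromosome 1 (chr1:51987106-52107189), encodes the transducer of IL-12 in T and natural killer cells. No library had a peak at the outer start site, 51987148. At the inner start site, 52008240, about 21.1 kb into the gene, every library had a peak over the 300-bp window, at percentiles of 81.9, 88.8 and 91.8 in the untreated and 90.7, 90.0 and 92.1 in the DTx libraries. The groups overlapped, and untreated replicate 1 was the lowest. The start base itself was under the peak in 4 of 6 libraries. The peak began just downstream of it, at 52008289 and 52008273, in untreated replicate 2 and DTx replicate 1. The 150 bases before each start site on the plus strand are shown to compare the 2 starts, at chr1:51986998-51987147 and chr1:52008090-52008239. The earliest of the 6 peaks at the inner start began at 52008194, so most of the inner stretch lies upstream of the peaks.
Stat4 outer start: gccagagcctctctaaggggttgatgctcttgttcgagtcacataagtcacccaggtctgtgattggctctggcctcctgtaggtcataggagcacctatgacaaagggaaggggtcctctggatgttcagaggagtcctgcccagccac
Stat4 inner start: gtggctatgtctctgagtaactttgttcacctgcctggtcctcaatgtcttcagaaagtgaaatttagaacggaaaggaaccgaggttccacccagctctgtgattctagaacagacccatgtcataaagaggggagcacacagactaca
The outer stretch holds 1 CpG and 55.3% G and C, and the inner one 2 CpG and 46.7%. Stat4 held 12 of its 19 regions inside the gene, the most of the 10 genes, but only 7 of the 19 were called in 6 of 6 libraries. Its strongest other region, chr1:52113315-52114163, lies 6.13 kb beyond the gene, at percentiles from 91.2 to 97.2.

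Stat6 (chr10:127642955-127660987) carries the IL-4 signal. Its gene-end peak reached percentiles of 70.5, 75.0 and 91.5 in the untreated and 93.4, 80.8 and 83.2 in the DTx libraries. The groups overlapped, and the 2 highest values belonged to the 2 narrow-layout lists, 1 in each group. The region, chr10:127641878-127644126, was wide, and its strongest peak measured 2214, 2214 and 2237 bp in the untreated and 749, 2235 and 2245 bp in the DTx libraries. A second region within 1 kb of the other end of Stat6, chr10:127661895-127662873, was also called in 6 of 6 libraries. Its percentiles were 40.0, 52.0 and 50.8 in the untreated and 53.3, 61.4 and 57.7 in the DTx libraries. They were higher in every DTx library, a pattern counted over all regions below. Of the 10 genes, Stat6 had the densest neighbourhood. Peaks covered 8.33% ± 1.32 (SD, n = 6 libraries) of its window, which 98.9% of protein-coding genes did not exceed. The median was 2.16% over all genes and 3.29% over those with a gene-end peak in 6 of 6 libraries. Part of that cover belongs to neighbouring genes. A region at a start site of Nab2, chr10:127666543-127668916, held 1984 to 2336 bp of deposited peaks per library. The strongest other region there, at percentiles from 93.1 to 97.6, lies at a start site of the neighbouring gene Nemp1.

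Among the feedback genes and targets, Cish, Pim1 and Socs1 had gene-end peaks of similar strength. Cish (chr9:107296659-107302784) encodes the inhibitor that STAT5 induces. The peak over its 2 STAT-site matches reached percentiles of 73.2, 73.3 and 82.3 in the untreated and 76.4, 75.3 and 82.1 in the DTx libraries. The groups overlapped. Pim1 (chr17:29490785-29496111) encodes the survival kinase. Its gene-end percentiles were 80.0, 73.9 and 79.3 in the untreated and 72.7, 85.2 and 76.5 in the DTx libraries, again with overlap. A region inside Pim1, chr17:29494063-29494626, was stronger than the start site in 5 of 6 libraries, at 71.5, 89.0 and 83.1 in the untreated and 82.4, 91.0 and 95.6 in the DTx libraries. The second RefSeq start of Pim1, at 29493085, had a weaker peak over its 300-bp window in 6 of 6 libraries, and over the start base in 4 of 6, from the percentile 9.3 in DTx replicate 1 to 59.9 in DTx replicate 3.

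Socs1 (chr16:10783808-10785536) encodes the inhibitor of the JAK kinases and is the shortest gene of the set. Its gene-end region, chr16:10784341-10786613, is longer than the gene and reached percentiles of 72.8, 77.7 and 87.6 in the untreated and 75.0, 83.4 and 85.5 in the DTx libraries, with overlap. Regions at chr16:10767110-10767543 and chr16:10768966-10770120 were called in 5 of 6 libraries and were missing in DTx replicate 1 alone. Only 4 of its 12 regions were called in 6 of 6 libraries.

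Socs3 and Socs2 had the weakest gene-end peaks. Socs3 (chr11:117966079-117970336) encodes the inhibitor of gp130 receptors, which signal through STAT3. At its start site the percentiles were 25.4, 47.1 and 71.3 in the untreated and 19.4, 56.6 and 55.1 in the DTx libraries, and the groups overlapped. By the strongest peak at either gene end they were 25.4, 47.1 and 71.3 against 53.8, 56.6 and 63.8, also with overlap. The value of DTx replicate 1 there was that of a second peak at the same end, chr11:117969651-117970147, and that of DTx replicate 3 was that of a peak of 315 bp at the other end. Socs3 had stronger peaks outside the gene. The region chr11:117952080-117952724, 13.4 kb from the nearer end, reached 81.4, 80.7 and 89.4 in the untreated and 85.5, 87.7 and 91.9 in the DTx libraries, which overlapped. Of the 12 regions around Socs3, 10 were called in 6 of 6 libraries, and peaks covered 6.93% ± 1.23 (SD, n = 6 libraries) of the window, second to Stat6.

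Socs2 (chr10:95383903-95417321) encodes the inhibitor best known for restraining growth hormone signals through STAT5. Its gene-end percentiles were 11.1, 18.8 and 41.7 in the untreated and 35.7, 57.0 and 50.3 in the DTx libraries, which overlapped because untreated replicate 3 exceeded DTx replicate 1. The strongest region of Socs2 was inside the gene, chr10:95388894-95389706, 4.99 kb from the nearer end. It reached percentiles of 93.6, 94.4 and 94.5 in the untreated and 95.2, 97.8 and 96.4 in the DTx libraries. These percentiles were higher in every DTx library. Of the 63 regions around the 10 genes that were called in 6 of 6 libraries, 3 had that pattern (this one and 2 around Stat6) and 0 the opposite one, beside 6.43% and 0.417% of all such regions.

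The transducers had the stronger gene-end peaks of the 2 roles. The mean percentile was 91.7 for the 3 transducers with a gene-end peak and 64.8 for the 5 feedback genes and targets, a difference of −26.8 ± 5.51 (feedback minus transducer, SD over 6 libraries). The transducers were higher in each of the 6 libraries. That SD is over libraries of the same genes and does not measure the spread between genes. Over all protein-coding genes with a gene-end peak, the mean percentile per library ran from 70.6 to 76.3. Stat4 and Stat5b do not enter the transducer mean. With start-site peaks, which bring in both and leave out Socs2, the means were 87.4 and 70.3 and the difference was −17.2 ± 5.37 (SD over 6 libraries). By gene ends, the feedback mean was low through Socs2 and Socs3, while Socs1, Cish and Pim1 overlapped in strength with Stat6. By regions the roles were closer: 29 of the 56 distinct transducer regions (51.8%) and 34 of the 60 feedback regions (56.7%) were called in 6 of 6 libraries. Over all 116 distinct regions of the 10 genes, 63 (54.3%) were in 6 of 6 libraries, against 44.1% of all 70174 regions. The roles also differed in where peaks lay, with 17 of 56 transducer regions and 6 of 60 feedback regions inside the gene. Gene lengths ran from 18033 bp (Stat6) to 120084 bp (Stat4) for the transducers and from 1729 bp (Socs1) to 33419 bp (Socs2) for the others.

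Between untreated and DTx libraries no peak region around the 10 genes was specific to a group. Of the 116 regions, 0 were called in 3 of 3 untreated and 0 of 3 DTx libraries, against 0.0242% of all regions, and 0 in 3 of 3 DTx and 0 of 3 untreated libraries, against 0.705%. Of the 97 regions with a peak in at least 1 equal-length list, 2 were in the equal-length lists of the untreated libraries only, both in Socs2, against 0.579% of the 48713 such regions genome-wide. In those of the DTx libraries only there was 1, inside Stat5b, against 0.367%. That Stat5b region, chr11:100826535-100826930, was called in the deposited list of untreated replicate 3 too, at the percentile 33.2, beside 28.2, 40.4 and 44.3 in the DTx libraries. Of the 116 regions, 11 were missing only in untreated replicate 1 and DTx replicate 1, 2 of the 3 shortest lists, which is 9.48% beside 3.87% of all regions, and 11 were called in 1 library. Peaks come from many cells, so openness in fewer cells and less openness per cell cannot be told apart.

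Gene by gene, the covered length (bases under peaks of the equal-length lists in each gene with its flanks) and the number of those peaks were fitted with limma over all genes. All 10 genes passed the filters. No gene of the set was called at an adjusted p of 0.05, and neither was any of the 15195 genes fitted for covered length (0%) or of the 12570 fitted for peak number (0%). At an unadjusted p of 0.05, 188 genes were higher (1.24%) and 437 lower (2.88%) in DTx by covered length, and 252 higher (2%) and 153 lower (1.22%) by peak number. Socs2 was the 1 gene of the set among them in both. The median log2 difference in covered length (DTx minus untreated) was 0.04 over the 10 genes, 6 above 0 and 4 below. Over all genes tested it was 0.02, with 8360 above 0 and 6835 below. For peak number the median was 0.07, with 9 above 0 and 1 below. Over all genes tested it was 0.01, with 6804 above 0 and 5766 below. Stat3, Stat5a and Stat5b share part of their peaks, so the 10 genes are not 10 separate observations.

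**Figure D3:**
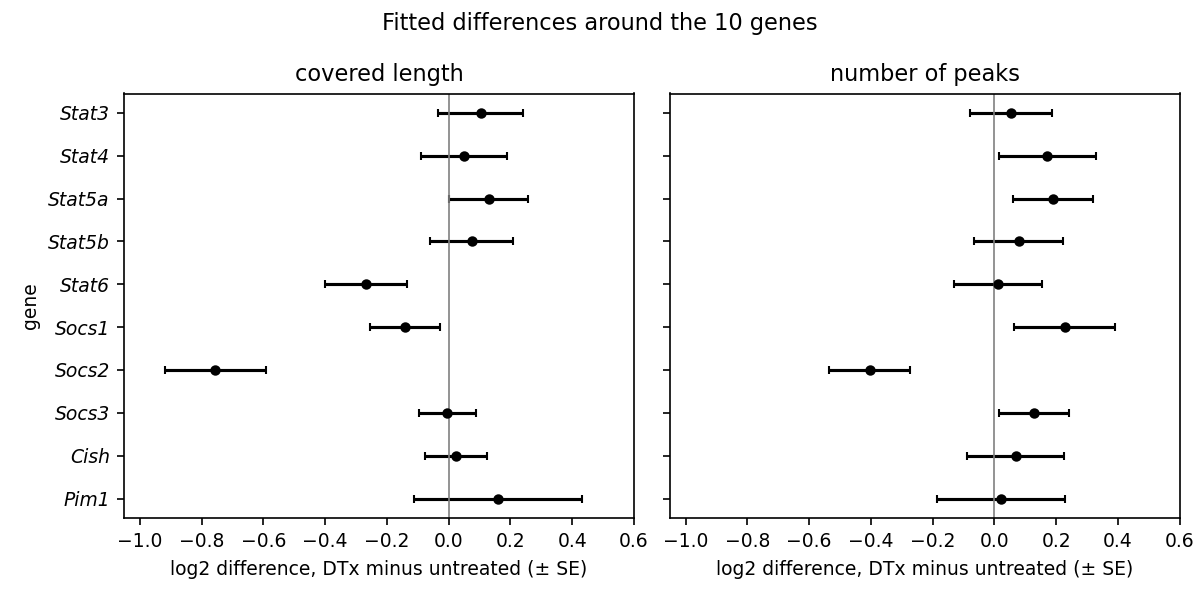
Fitted log2 difference, DTx minus untreated, with its standard error (bars), in covered length (left) and number of peaks (right) for each of the 10 genes, from limma on 3 libraries per group. Socs2 lies lowest in both, at −0.76 and −0.40, and no gene passed the adjusted threshold.

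Socs2 had the largest difference of the set. In the equal-length lists peaks covered 4484, 7417 and 6019 bp around Socs2 in the untreated and 3098, 2834 and 3709 bp in the DTx libraries. Every DTx library was below every untreated one, and the means were 5973 ± 1467 and 3214 ± 449 bp (SD, n = 3 each), a ratio of 0.538. The limma log2 difference was −0.76 ± 0.16 (SE), with an adjusted p of 0.784, and Socs2 ranked at place 26 of 15195 genes by p. The number of peaks was 9, 10 and 8 in the untreated and 7, 6 and 7 in the DTx libraries, also without overlap, with a log2 difference of −0.40 ± 0.13 (SE) and an adjusted p of 0.993 by limma. In the deposited lists the groups overlapped in both measures. Peaks there covered 4484, 7417 and 7736 bp in the untreated and 5216, 5716 and 6604 bp in the DTx libraries. They numbered 9, 10 and 12 against 11, 10 and 13. The limma log2 difference there was smaller in covered length, at −0.21, and of the opposite sign in peak number, at 0.13.

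The Socs2 difference lay mainly in 3 stretches in and at the end of the gene. In the region chr10:95394857-95396589, peaks of the equal-length lists covered 769, 1559 and 857 bp in the untreated libraries and 0 bp in each DTx library. In chr10:95414363-95415078 they covered 231, 469 and 669 bp in the untreated and again 0 bp in each DTx library. Both regions had a deposited peak in all 6 libraries, at percentiles of 20.8, 23.6 and 43.7 against 8.4, 20.2 and 37.3 for the first and 3.6, 16.1 and 42.9 against 4.2, 31.6 and 19.4 for the second, and the groups overlapped in both. The peaks of lowest −log10 q left out to reach equal length were 0%, 13.5% and 34.9% of the untreated and 17.7%, 34.7% and 39.6% of the DTx lists. The untreated peaks thus lay above the limit of their list and the DTx peaks below theirs, and the part of the unequal limits in the difference was not tested.

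At the third stretch, the gene-end region chr10:95415632-95418134, the strongest peak was 532, 2462 and 1693 bp wide in the untreated and 359, 292 and 330 bp in the DTx libraries. Every DTx peak was narrower than every untreated one, which held for 1 of the 8 genes with a gene-end peak and for 1.49% of all genes with one in 6 of 6 libraries. None of the 8 had a wider peak in every DTx library (0.872% of all genes). In the deposited lists the region was 1, 1 and 2 peaks in the untreated and 3, 2 and 3 peaks in the DTx libraries, covering 532, 2462 and 2216 bp against 1393, 889 and 1293 bp. In each DTx library the strongest piece lay just beyond the gene end, where untreated replicate 1 had no peak and untreated replicates 2 and 3 had a peak that ran on into the gene.

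**Figure D4:**
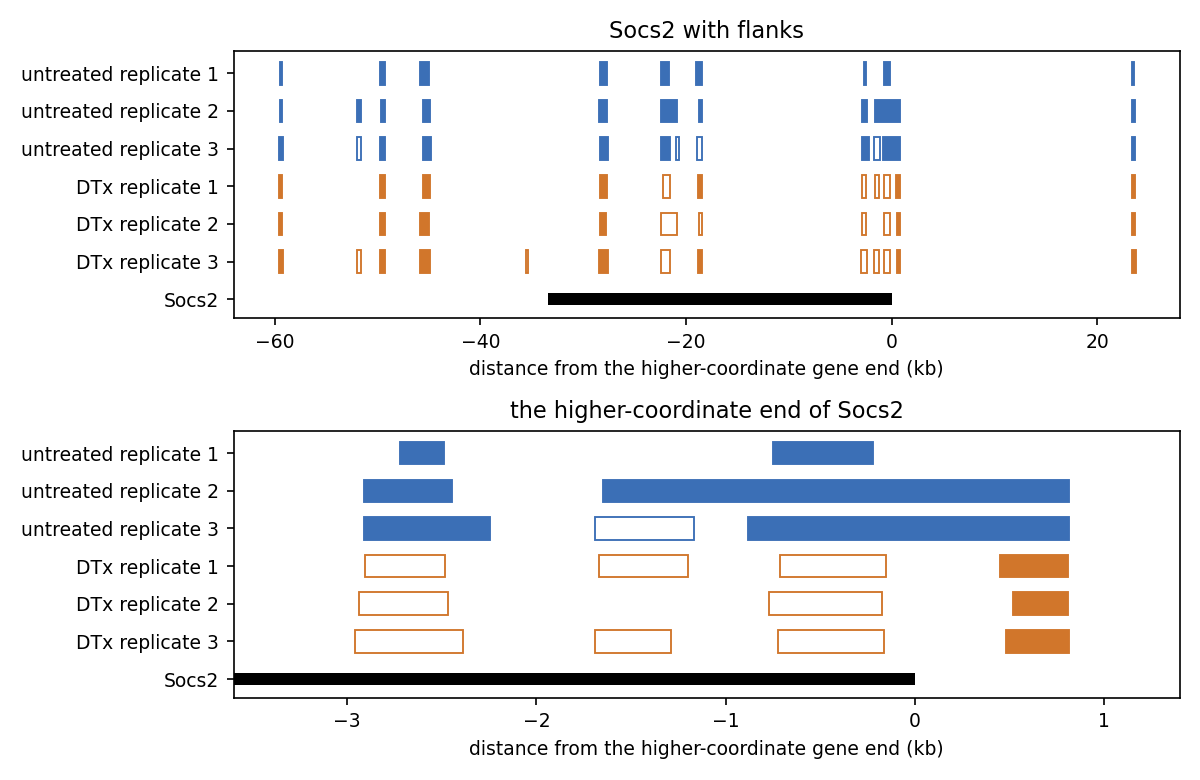
Peaks of each library (rows; untreated in blue, DTx in orange) around Socs2, by distance in kb from its higher-coordinate end, with the gene as a black bar, and in the lower panel the last few kb. Filled boxes are peaks of the equal-length lists and open boxes are deposited peaks outside them. Near the gene end the DTx libraries keep 1 narrow peak of 359, 292 and 330 bp in the equal-length lists, and their open boxes show the weaker peaks left out.

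Stat6 was the other gene whose covered length did not overlap between the groups. Peaks of the equal-length lists covered 9200, 9590 and 8722 bp around Stat6 in the untreated and 6002, 8177 and 8159 bp in the DTx libraries, a ratio of means of 0.812. The limma log2 difference was −0.27 ± 0.13 (SE), with an adjusted p of 1.00. In the deposited lists the limma log2 difference was −0.21, but the groups overlapped. The lengths there were 9200, 10001 and 11457 bp in the untreated and 7191, 9869 and 11288 bp in the DTx libraries. At the gene-end region chr10:127641878-127644126 the groups overlapped in the equal-length lists, at 2214, 2214 and 2237 bp against 1632, 2235 and 2245 bp. The region chr10:127620968-127622387 lies outside Stat6, at a start site of Lrp1. Peaks of the equal-length lists covered 1225, 1266 and 0 bp of it in the untreated and 0 bp in each DTx library. It had a deposited peak in all 6 libraries, and the part of the unequal limits was not tested. Stat6 and Socs2 were 2 of 10 genes with less covered length in every DTx than in every untreated library, beside 2.7% of all genes tested, and 0 of 10 had more, beside 1.09%. For peak number 1 of 10 was lower throughout (0.859% of genes) and 0 of 10 higher (1.41%).

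**Figure D5:**
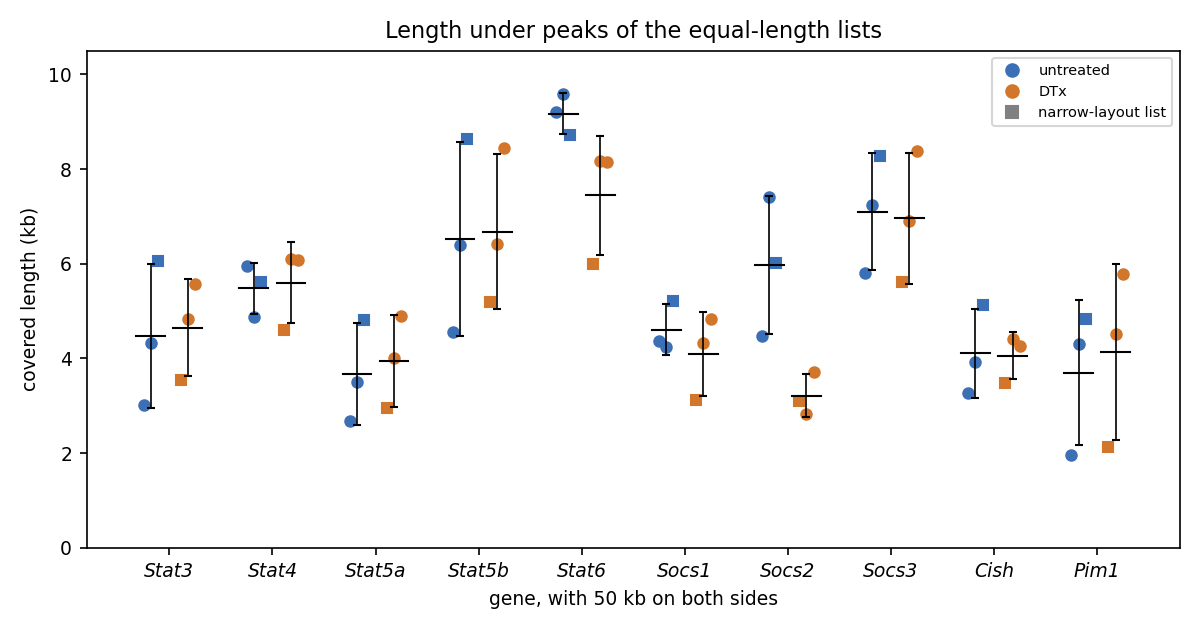
Length in kb under peaks of the equal-length lists in each gene and 50 kb on both sides, 1 symbol per library (squares for narrow-layout lists), with the mean and SD of 3 untreated (blue) and 3 DTx (orange) libraries. Socs2 and Stat6 are the 2 genes without overlap of the groups.

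For the other 8 genes the covered lengths overlapped between the groups, with ratios of means from 0.887 for Socs1 to 1.12 for Pim1. Socs1 had shorter peaks, with a mean length per peak of 692 ± 62.1 bp in the untreated and 512 ± 28.8 bp in the DTx libraries (SD, n = 3 each), without overlap. It was the 1 gene of 10 with that pattern, which 5.91% of genes tested by peak number shared, and 0 of 10 had the opposite one (0.525% of genes). Over whole deposited lists the median peak width was also lower in every DTx library, at 511, 525 and 543 bp in the untreated and 470, 480 and 476 bp in the DTx libraries. The part of that shift in the Socs1 lengths and in the Socs2 gene-end widths was not tested. Percentiles of the strongest gene-end peak overlapped between the groups for all 8 genes with one, beside 2.31% of genes higher and 0.575% lower in every DTx library.

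The direction of the group difference in covered length differed between the 2 layouts, genome-wide as well as for most of the 10 genes. The equal-length lists covered 28.4 Mb in untreated replicate 3 and 21.3 Mb in DTx replicate 1, and in the broad layout 22.3 and 24.1 Mb (untreated) against 24.9 and 26.1 Mb (DTx). In the narrow-layout pair DTx replicate 1 was below untreated replicate 3 for all 10 genes, beside 91.2% of all genes tested, for example 5185 against 8645 bp around Stat5b and 2127 against 4835 bp around Pim1. In the 4 broad-layout libraries the DTx mean was above the untreated mean for 8 genes, beside 81.7% of all genes tested, for example 7426 against 5471 bp around Stat5b and 5155 against 3130 bp around Pim1. Socs2 and Stat6 were lower in DTx within both layouts, as were 14.4% of all genes tested. For both genes that follows from the lack of overlap given above and is no further result. For Socs2 the DTx and untreated values were 3272 against 5951 bp (broad) and 3098 against 6019 bp (narrow). For Stat6 they were 8168 against 9395 bp (broad) and 6002 against 8722 bp (narrow). The limma log2 difference in the broad-layout libraries alone was −0.93 for Socs2 and −0.37 for Stat6, with adjusted p-values of 0.686 and 0.698, while the narrow-layout pair has no replicate.

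The other genes of the pathway were taken as a list of 48, from receptors and kinases to inhibitors and targets. A gene-end peak was called in 6 of 6 libraries for 40 of them (83.3%, beside 49.2% of all genes), among them all 4 kinases, all 4 other SOCS genes, 13 of 18 receptors and 10 of 12 further targets. The strongest were Tyk2, a kinase of interferon and IL-12 receptors (percentiles from 96.1 to 98.7), Ptpn2, a phosphatase that acts on JAK and STAT proteins (93.5 to 98.3), and Il2rg, the common γ chain of the IL-2, IL-4, IL-7 and IL-21 receptors (92.5 to 96.5). Jak1 reached 90.5 to 94.4, Ifnar1 90.4 to 95.2, Stat2 87.7 to 96.1, Pim3 87.6 to 96.6, Prdm1 85.0 to 90.9, and both Ptpn6 and Pias4 at least 82.6. The RefSeq start-site window of Ptpn6 was under a peak in 0 of 6 libraries, so its gene-end peak did not lie over that window. Among the inhibitors closest to the SOCS genes above, Socs5 reached 79.3 to 88.6 and Socs4 71.8 to 89.8, so both lay above Socs2 and Socs3 in every library.

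No gene-end peak was called for 4 of the 48 genes: Ptpn1, Il12rb1, Bcl2l1 and Mcl1. As with Stat4 and Stat5b, Ptpn1, Bcl2l1 and Mcl1 had a peak over a RefSeq start-site window in 6 of 6 libraries. Il2rb, a receptor chain for IL-2 and IL-15 that is abundant on natural killer cells, had a gene-end peak in 2 of 3 untreated and 0 of 3 DTx libraries, and Il13ra1, Il7r and Il10ra differed by 1 library. Of the 9 markers of natural killer and innate lymphoid cells, Il2rb among them, 1 to 4 were called per untreated and 1 to 3 per DTx library, with Ncr1 and Klrb1c in none, and the part of such cells in the Il2rb peaks was not tested. By limma 0 of 48 genes were called by covered length and 0 of 45 by peak number. The median log2 difference of the list in covered length was −0.03, with 23 above 0 and 25 below. Among the 4 kinases, the log2 difference in covered length was −0.41 ± 0.11 (SE) for Tyk2, −0.39 ± 0.09 for Jak3 and 0.34 ± 0.08 for Jak2. The adjusted p-values by limma of these genes were 0.978, 0.826 and 0.864. The difference for Jak1 was 0.04 ± 0.10 (SE). At an unadjusted p under 0.05 by limma were 4 of the 48 genes (Ptpn6, Jak3, Tyk2 and Jak2), beside 625 of all 15195 genes tested.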

How the data were processed

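ATAC-seq reads of 6 libraries were processed with Trim Galore 0.4.3, Bowtie2 2.3.2 (mm10) and MACS2 2.1.1, per the submitters' processing notes. Neither a Tn5 shift, nor duplicate removal, nor read totals could be checked, as the sources used here name none of them. The authors deposited 1 peak list per library. Per the file headers, each peak has a pileup (coverage signal) and a fold enrichment (ratio). The deposited −log10 p and −log10 q columns have damaged headers, so column order and values were used to tell them apart. They are the authors' values and served only to rank peaks within a list. 

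Only peaks on X, Y and the 19 autosomes entered. Merging all peaks of the 6 lists that overlapped by at least 1 bp gave the regions. The RefSeq gene table (GRCm38.p6) has no strand and no exons, so exons, introns and UTRs were not told apart. limma 3.58.1 (R 4.3.3, trend and robust) was fitted to log2(bp + 500), centred on the library median (genes with a mean of at least 1000 bp), and to log2(peaks + 0.5), with the residual variance floored at that of 1 more peak in 1 library (mean of at least 3 peaks), with Benjamini-Hochberg adjustment at 0.05. The added constants shrink the differences of sparsely covered genes, and genes that lie close together count the same peaks. The fits were tested on simulated data. Other steps used Python 3.11.15, NumPy 2.4.6, pandas 2.3.3 and matplotlib 3.10.9.

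The 10 genes and the lists were chosen with earlier results of these data known. Named beside them were pathway genes with a gene-end peak in no library, or differing by at least 2 libraries between the groups, the 2 per role with the highest lowest percentile, and any past limma. Jak2 and Jak3, Il13ra1, Il7r and Il10ra were named after their values were seen. Regions named were the gene-end region, the strongest other region and group-only regions, and further regions were named after their values were seen. Of the marker symbols, 3 were not in the gene table. Values of 1 gene of the pathway list are not reported here.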

Additional observations from a re-analysis of the deposited data

How the results depend on the processing

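No gene of the set passed limma under any alternative (310 values), and Socs2 and Stat6 kept their sign for covered length in 15 of 15 alternatives, from −0.93 to −0.18 and from −0.42 to −0.16. For peak number Socs2 kept it in 15 of 16, with 0.13 in the deposited lists, where the median of all genes was 0.20. By covered length 0 genes were called under every alternative. By peak number 109 were called with the broad-mode libraries only and 88 without the variance floor, and leaving out 1 library gave 0 to 34 (14 without untreated replicate 1, 34 without DTx replicate 1); the cause was not tested. With the replicate block 27 were called by peak number (16 higher, 11 lower) and 0 by covered length. By covered length, same-numbered libraries correlated in their deviations from the group means at 0.48, 0.07 and 0.35. Untreated replicate 2 correlated best with DTx replicate 3, at 0.28. Deviations within a group depend on each other, so these values cannot decide whether the numbers pair the samples.

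With only peaks of −log10 q of at least 5, the mean number of genes with a gene-end peak per library was 7 in the untreated and 8 in the DTx group, a difference of 1: Socs2 was called in 4 of 6 libraries and Socs3 in 5. Group-only regions numbered 3 in the equal-length lists and 0 to 4 when 1 library was left out (4, all DTx-only, without untreated replicate 3 and without DTx replicate 1). The difference between the roles lay between −28.1 and −21.4, except with start-site windows (−17.2), which leave out Socs2 and bring in Stat4 and Stat5b. The use of start-site windows and the layout pair were chosen after seeing the data. Read depth is unknown and was not weighed.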
